A study of Mus musculus with 3 samples.

Results

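The granzyme and natural killer genes described here are 10 genes of the cytotoxic lymphocyte programme: the granule proteases Gzma, Gzmb, Gzmk and Gzmm, the pore-forming protein Prf1, the granule membrane protein Nkg7, the activating receptors Ncr1, Klrb1c and Klrk1, and the transcription factor Eomes. They were chosen by name, and each of the 10 was found among the 46951 loci of the deposited gene table. RNA was taken from the inguinal nodes of C57BL/6j males, and all mice had dinitrofluorobenzene (DNFB), a contact sensitizer, painted on the abdomen. From 3 days later, the mice received daily intraperitoneal injections of ethanol as the vehicle, of 20(OH)D3 at 4 µg/kg or of 25(OH)D3 at 4 µg/kg, 4 injections in all, and the nodes were taken 24 h after the last. The 2 compounds are vitamin D3 carrying 1 hydroxyl group, on side-chain carbon 20 or 25. Each group is 1 library, and no source used here says how many mice it holds or gives an unsensitized group.

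Cytotoxic granules carry perforin, which opens the target cell's membrane, and granzymes, serine proteases that enter through that opening and cleave proteins inside the cell. Mature natural killer (NK) cells express granule genes before activation, whereas CD8 T cells do so mainly after it. The RNA values here do not measure the protein in the granules. Resting lymph nodes hold few NK cells, and contact sensitizers recruit and activate both cell types. In a whole node, fewer cells of a type and less RNA per cell cannot be told apart.

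As each group was 1 library, no p-value is given, nothing could be checked against replicates, and every difference is between these libraries rather than between treatments. The 3 libraries held 8226431, 7522550 and 7991748 reads (vehicle, 20(OH)D3, 25(OH)D3), and values below follow that order unless named. The lymphoid genes Ptprc, Cd3e, Cd79a and Ccr7 lay between 864 and 9238 normalized counts, so the defining genes of a lymph node were present in every library. Of 10 adipocyte genes, 10 were at least 1.5-fold higher with 20(OH)D3 than with vehicle and 7 with 25(OH)D3. Of all loci averaging at least 20 normalized counts, 11.0% and 4.32% were. The 10 adipocyte genes took 0.318%, 1.24% and 0.562% of reads. The 20(OH)D3 library was thus highest in adipocyte share as it was in Gzma and Ncr1, and the part of that share in their values was not tested. After mitochondrial, immunoglobulin and adipocyte loci were left out of the scaling, the log2 ratio of Gzma between 20(OH)D3 and vehicle was 1.31, against 1.32 before. That step changes only 1 factor per library, the same for every locus, so it cannot show the part of the adipocyte share in Gzma.

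The stretch around the catalytic serine shows how far apart the 4 granzyme messages are, which matters because near-identical genes can exchange reads. Below are 54 coding bases of each, 5′ to 3′ on the coding strand, from the GENCODE M21 transcripts of GRCm38. Capitals mark the 12 bases that encode Gly-Asp-Ser-Gly, where the serine attacks the substrate.
Gzma: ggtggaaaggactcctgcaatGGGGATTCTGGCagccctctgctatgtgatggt
Gzmb: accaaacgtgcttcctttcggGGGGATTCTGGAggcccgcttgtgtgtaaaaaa
Gzmk: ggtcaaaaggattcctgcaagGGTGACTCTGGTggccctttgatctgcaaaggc
Gzmm: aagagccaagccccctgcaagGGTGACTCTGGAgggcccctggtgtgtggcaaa
Gzma and Gzmk, neighbours on chromosome 13, shared 39 of these 54 bases, the most of any pair, and Gzma and Gzmb shared 28. Over whole transcripts, none of the 50-base words of the 4 granzymes, Prf1, Nkg7, Ncr1 or Klrk1 occurred in another annotated gene. Klrb1c shared 17.0% of its words with other genes, among them Klrb1a and Klrb1b, and Eomes shared 2.10%, mostly with the antisense gene Gm33460. The value of Klrb1c is also that of a locus merged with Klrb1b and Gm44511, so it can hold reads of those genes. The Eomes locus runs 2967 bases past the annotated end of the gene and overlaps Gm33460 on the other strand. The shares of words therefore do not bound the uncertainty of either value.

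The promoters of 4 members are shown because these genes differed in how their values moved across the libraries: Gzma and Ncr1 were highest with 20(OH)D3 and lowest with 25(OH)D3, Gzmb was above vehicle with both, and Prf1 was nearly level. Each runs 5′ to 3′ on the gene's own strand, from 250 bases before to 50 bases after the RefSeq start (GRCm38.p6). Capitals mark the T-box motif AGGTGT and the RUNX motif TGTGGTT on either strand (ACACCT and AACCACA when read on the other strand), which factors such as Eomes and Runx3 are known to bind.
Gzma, chr13:113100932-113101231, minus strand: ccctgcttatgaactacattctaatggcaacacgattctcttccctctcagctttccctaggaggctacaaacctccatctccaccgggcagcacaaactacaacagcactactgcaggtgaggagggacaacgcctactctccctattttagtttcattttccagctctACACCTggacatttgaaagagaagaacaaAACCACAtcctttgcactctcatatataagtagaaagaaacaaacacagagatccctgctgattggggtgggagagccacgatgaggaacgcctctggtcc
Gzmb, chr14:56262285-56262584, minus strand: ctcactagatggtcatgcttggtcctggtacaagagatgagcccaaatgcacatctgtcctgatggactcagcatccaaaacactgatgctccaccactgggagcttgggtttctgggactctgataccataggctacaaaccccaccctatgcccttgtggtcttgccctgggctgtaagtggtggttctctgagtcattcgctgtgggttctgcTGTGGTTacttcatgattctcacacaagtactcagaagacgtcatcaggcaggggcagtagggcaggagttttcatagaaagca
Ncr1, chr7:4337474-4337773, plus strand: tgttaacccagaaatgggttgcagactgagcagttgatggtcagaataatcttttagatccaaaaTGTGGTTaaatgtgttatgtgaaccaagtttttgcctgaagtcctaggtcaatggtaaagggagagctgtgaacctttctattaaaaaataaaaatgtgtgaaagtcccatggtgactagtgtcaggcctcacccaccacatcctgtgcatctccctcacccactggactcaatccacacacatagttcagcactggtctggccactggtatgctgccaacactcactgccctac
Prf1, chr10:61297586-61297885, plus strand: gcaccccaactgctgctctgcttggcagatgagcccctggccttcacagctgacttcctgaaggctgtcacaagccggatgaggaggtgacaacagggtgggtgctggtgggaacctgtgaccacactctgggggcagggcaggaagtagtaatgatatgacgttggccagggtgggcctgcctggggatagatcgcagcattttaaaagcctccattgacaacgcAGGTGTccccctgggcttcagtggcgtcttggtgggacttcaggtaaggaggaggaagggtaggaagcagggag
The Gzma window held a T-box match at -80 and a RUNX match at -51 from the start, both on the minus strand of the window. Gzmb held a RUNX match at -34, Ncr1 a RUNX match at -185 and Prf1 a T-box match at -24. The RefSeq start of Gzmb lies 74 bases upstream of the edge of its locus in the table.

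All 10 members matched the promoter table, Ncr1 and Gzmm with more than 1 start. On the scale where the Gzmb start is 74 bases upstream, the starts of Gzmk and Klrb1c lie at -44943 and -37690, far inside their loci. Those 2 windows are thus not at the edge of the measured locus. The T-box motif was in the windows of 4 members (Gzma, Gzmk, Nkg7 and Prf1) and in 13.7% of all 32841 windows of this length. The RUNX motif was in 4 (Gzma, Gzmb, Klrk1 and Ncr1) and in 5.27% of all windows. The STAT motif TTCNNNGAA was in 3 (Gzmb, Gzmm and Nkg7) and in 8.30%. The cyclic AMP response element TGACGTCA was in 0 members and 1.79% of windows, and the consensus vitamin D response element, a hexamer repeated after 3 bases, in 0 members and 0.256%. These are matches of letters, and no file here measures binding.

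Per transcript length, Nkg7 was by far the most abundant member, with a mean of 111 FPKM over the 3 libraries (fragments per kilobase of transcript, scaled to library size). Klrk1 followed at 16.4 FPKM, Gzma at 13.1, Eomes at 7.36, Prf1 at 7.14, Klrb1c at 6.83, Gzmb at 3.92, Ncr1 at 2.55, Gzmm at 1.58 and Gzmk at 0.492. The level of Gzma was 23.2 FPKM with 20(OH)D3, whereas with 25(OH)D3 it stood at 6.86 FPKM, below Prf1 at 7.36 and Eomes at 8.57. The range of Gzma over libraries overlapped those of Klrk1, Eomes, Prf1 and Klrb1c. The ranges of Eomes, Prf1 and Klrb1c overlapped each other, that of Gzmb overlapped that of Ncr1, and that of Ncr1 overlapped that of Gzmm, so the order among these genes is not settled by these libraries. Nkg7 stood clear of Klrk1 in every library, and Gzmk stood below Gzmm in every library.

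The main measure for comparing libraries is the normalized count, the authors' scaled count of a locus. Ratios carry exact 95% intervals (Clopper-Pearson, conditional on the summed reads), which cover counting error only. A locus entered the counts where it averaged at least 20 normalized counts over the 3 libraries, and it is called apart at 1.5-fold. Of the 10 members, 8 passed this filter, and Gzmk and Gzmm did not. The plot of normalized counts by gene shows each member's value in each library with its counting interval.

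**Figure D1:**
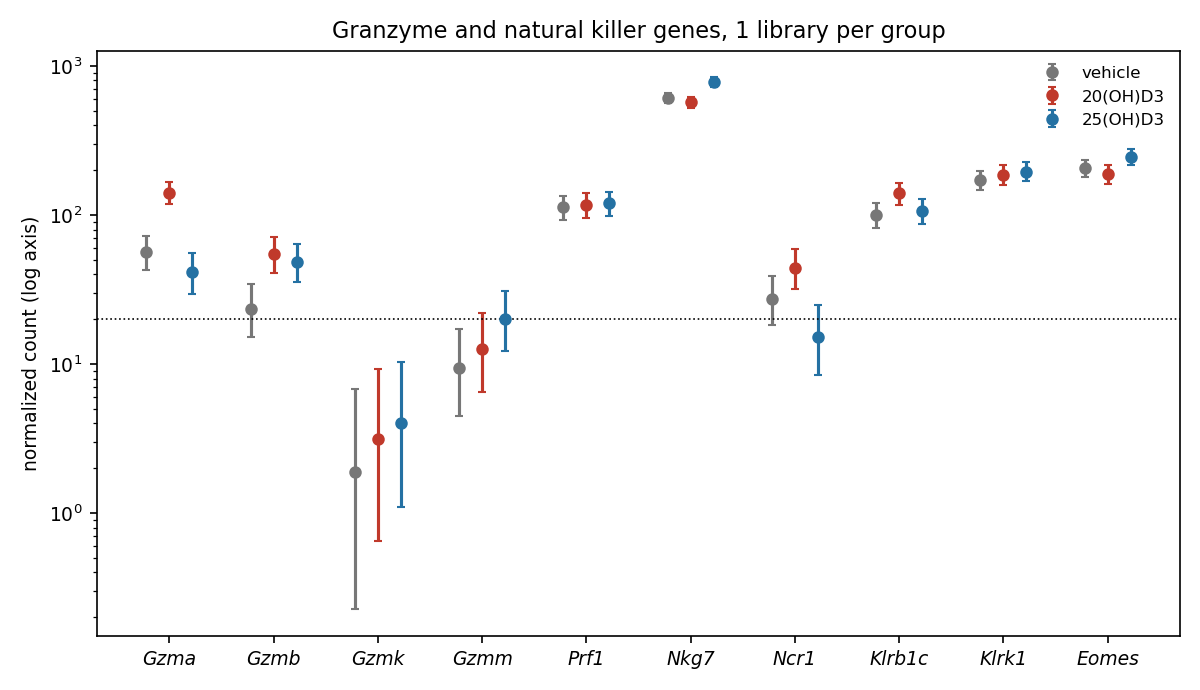
Normalized counts (log axis) of the 10 granzyme and natural killer genes in the vehicle (grey), 20(OH)D3 (red) and 25(OH)D3 (blue) libraries, 1 point per library, with bars for the exact 95% Poisson interval and a dotted line at the filter of 20. Gzma stands at 56.3, 141 and 41.2, Prf1 at 113, 116 and 120, and Nkg7 lies above all others at 571 to 783.

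Gzma, a granzyme that cleaves after basic residues, showed the widest contrast between the compounds of any member past the filter. Its locus (chr13:113093825-113100979) had 60 reads with vehicle, 134 with 20(OH)D3 and 41 with 25(OH)D3, which is 56.3, 141 and 41.2 normalized counts and 9.29, 23.2 and 6.86 FPKM. The 20(OH)D3 library was the high one, and the 25(OH)D3 library was the lowest. Against vehicle the ratio was 2.50 (1.83 to 3.45) with 20(OH)D3 and 0.733 (0.480 to 1.11) with 25(OH)D3, an interval that includes 1. Between the compounds Gzma was 3.41-fold higher with 20(OH)D3 (2.39 to 4.96).

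Gzmb, the granzyme that cleaves after aspartate and activates caspases, was above vehicle with both compounds. Its locus (chr14:56258856-56262260) had 25, 52 and 48 reads, or 23.4, 54.5 and 48.3 normalized counts and 2.18, 5.07 and 4.51 FPKM. The vehicle library was the low one, and the libraries of both compounds had overlapping counting intervals. The ratios to vehicle were 2.33 (1.42 to 3.91) with 20(OH)D3 and 2.06 (1.25 to 3.49) with 25(OH)D3. Between the compounds the ratio was 1.13, and its interval of 0.748 to 1.71 admits a difference of either sign.

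Gzmk and Gzmm were too low for a comparison. Gzmk (chr13:113171608-113225908), a tryptase-like granzyme found in memory-type CD8 T cells, had 2, 3 and 4 reads, and its locus overlaps Esm1 on the other strand. Gzmm (chr10:79689020-79695261), a granzyme that cleaves after methionine or leucine, had 10, 12 and 20 reads, or 9.38, 12.6 and 20.1 normalized counts. The 25(OH)D3 library had the most reads of both genes. The ratio of Gzmm between 25(OH)D3 and vehicle was 2.15 with an interval of 0.959 to 5.13, so a difference was not detectable at this depth.

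Summed over the 4 granzymes, the libraries held 90.95, 210.9 and 113.7 normalized counts. The sum was 2.32-fold higher with 20(OH)D3 than with vehicle (1.81 to 2.99) and 1.85-fold higher than with 25(OH)D3 (1.47 to 2.36). With 25(OH)D3 against vehicle it was 1.25 (0.944 to 1.66). Gzma supplied 134 of the 201 granzyme reads of the 20(OH)D3 library and 41 of the 113 of the 25(OH)D3 library, where Gzmb supplied 48. Of 6 further granzymes, Gzmd, Gzme, Gzmg and Gzmn were listed at 0 in every library and Gzmf had 1 read in the vehicle library. Gzmc, a granzyme of strongly activated cytotoxic cells, had 23, 25 and 14 reads, and the ratio between the compounds was 1.86 (0.931 to 3.88).

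The proteins that work beside the granzymes in the granule differed less. Prf1 (chr10:61297836-61304263), perforin, had 120, 111 and 119 reads, or 113, 116 and 120 normalized counts. The 3 libraries were nearly level, and the ratio to vehicle was 1.03 with 20(OH)D3 (0.792 to 1.35) and 1.06 with 25(OH)D3 (0.819 to 1.38). Between the compounds the ratio was 0.973 (0.744 to 1.27), an interval that leaves out any difference of 1.5-fold as far as counting error goes.

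Nkg7 (chr7:43437073-43438249), a granule membrane protein needed for efficient degranulation, had 651, 544 and 778 reads, or 610, 571 and 783 normalized counts. The 25(OH)D3 library was the high one: its ratio to vehicle was 1.28 (1.15 to 1.43), under the 1.5-fold line but with an interval above 1. With 20(OH)D3 the ratio to vehicle was 0.935 (0.833 to 1.05), and its log2 value of -0.10 became 0.07 when the libraries were scaled to T cell genes. Between the compounds Nkg7 was 0.729 (0.652 to 0.815), opposite in direction to Gzma.

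**Figure D2:**
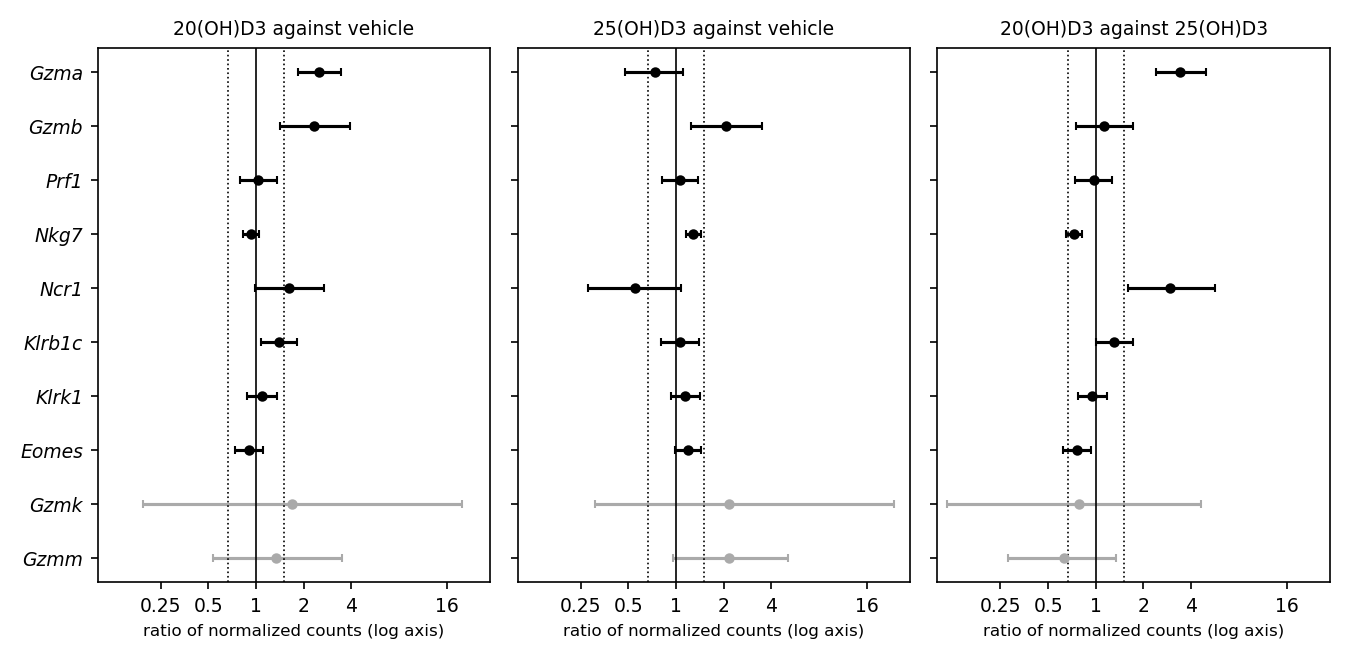
Ratio of normalized counts (log axis) for each member in the 3 comparisons, with exact 95% intervals for counting error; dotted lines mark 1.5-fold and grey points the members below the filter (Gzmk and Gzmm). Gzma and Ncr1 lie to the right with 20(OH)D3 against 25(OH)D3 (3.41 and 2.92), while Prf1 stays between 0.973 and 1.06 in all 3 panels.

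Among the receptors, Ncr1 (NKp46), the most specific NK cell marker of the 10, followed the order of Gzma. Its locus (chr7:4337724-4345164) had 29, 42 and 15 reads, or 27.2, 44.1 and 15.1 normalized counts and 2.44, 3.86 and 1.36 FPKM. The 20(OH)D3 library was highest and the 25(OH)D3 library lowest. Between the compounds the ratio was 2.92 (1.59 to 5.67). Against vehicle it was 1.62 with 20(OH)D3 (0.986 to 2.70) and 0.555 with 25(OH)D3 (0.277 to 1.07), and both intervals include 1. With 10 added to each normalized count, the log2 ratios to vehicle were 0.54 and -0.57, both inside the 1.5-fold line, and on FPKM + 1 they were 0.50 and -0.54.

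Klrb1c (NK1.1), the receptor by which NK cells of this strain are usually stained, shares its locus (chr6:128778485-128826331) with Klrb1b and Gm44511. The locus had 107, 133 and 106 reads, or 100, 140 and 107 normalized counts. The 20(OH)D3 library was the high one and the other two were nearly level. The ratio to vehicle was 1.39 (1.07 to 1.81) with 20(OH)D3 and 1.06 (0.805 to 1.40) with 25(OH)D3, and the ratio between the compounds was 1.31 (1.01 to 1.71). In FPKM, which also depends on how fragments are shared among isoforms, the locus was 1.67-fold higher with 20(OH)D3 than with vehicle and 1.58-fold higher than with 25(OH)D3, past the 1.5-fold line.

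Klrk1 (NKG2D, chr6:129610323-129623864), a receptor for stress-induced ligands that NK cells and CD8 T cells both carry, had 183, 178 and 195 reads, or 172, 187 and 196 normalized counts. Its ratios to vehicle were 1.09 with 20(OH)D3 (0.880 to 1.35) and 1.14 with 25(OH)D3 (0.930 to 1.41), and all its intervals include 1. Between the compounds it was 0.952 (0.772 to 1.17), a direction that flipped on FPKM and when scaled to T cell genes. Over the 3 receptors, the summed ratio was 1.24 with 20(OH)D3 against vehicle (1.06 to 1.45) and 1.06 with 25(OH)D3 (0.907 to 1.25).

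Eomes (chr9:118478212-118489099), the T-box factor of mature NK cells and memory CD8 T cells, had 221, 179 and 245 reads, or 207, 188 and 246 normalized counts. As with Nkg7, the 25(OH)D3 library was highest and the 20(OH)D3 library lowest. The ratio between the compounds was 0.762 (0.625 to 0.928). Against vehicle it was 0.906 (0.740 to 1.11) with 20(OH)D3, a direction that flipped to a log2 ratio of 0.03 when scaled to T cell genes, and 1.19 (0.988 to 1.43) with 25(OH)D3.

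Counted over the 8 members past the filter, 3 were at least 1.5-fold higher with 20(OH)D3 than with vehicle (Gzma, Gzmb and Ncr1) and 0 were lower, where 11.0% of all 12923 loci past the filter were higher and 3.51% lower. With 25(OH)D3 against vehicle, 1 was higher (Gzmb, background 4.32%) and 1 lower (Ncr1, background 2.93%). Between the compounds, 2 were higher with 20(OH)D3 (Gzma and Ncr1, background 9.41%) and 0 lower (background 4.12%). The median log2 ratio of the 8 was 0.30, 0.14 and 0.07 in these comparisons, beside -0.03, 0.01 and -0.02 over all loci. All 3 comparisons share libraries, so they are not separate evidence.

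The 10 genes together took 1408, 1388 and 1571 reads, which is 1320, 1456 and 1580 normalized counts. The ratio of these sums to vehicle was 1.10 (1.02 to 1.19) with 20(OH)D3 and 1.20 (1.11 to 1.29) with 25(OH)D3. Gzma was 4.26% of the members' reads with vehicle, 9.65% with 20(OH)D3 and 2.61% with 25(OH)D3, whereas Nkg7 was 46.2%, 39.2% and 49.5%. Prf1 kept between 7.57% and 8.52%, and Klrk1 between 12.4% and 13.0%. The make-up is drawn as stacked bars.

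**Figure D3:**
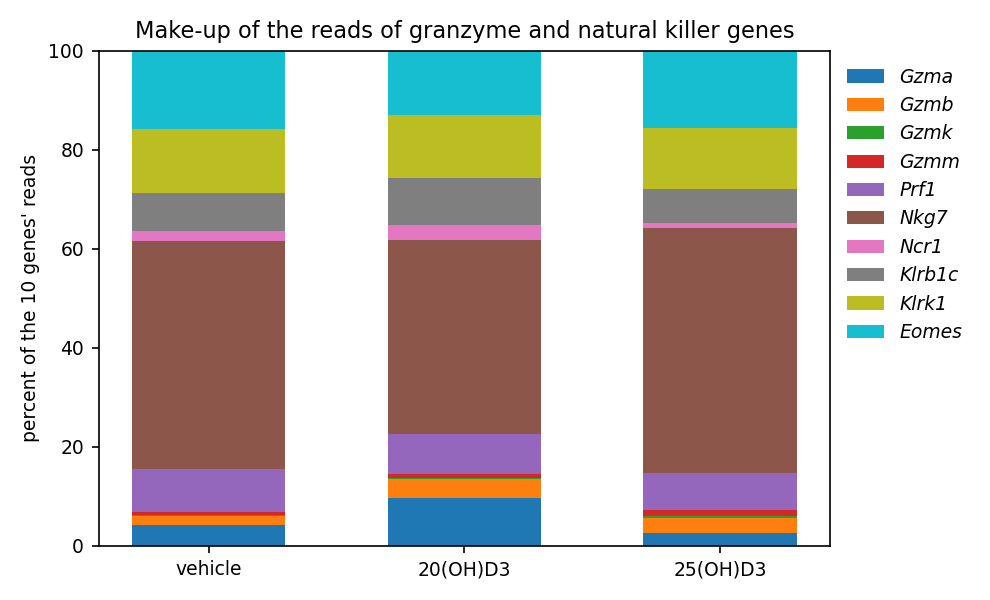
Percent of the 10 members' reads taken by each gene in the 3 libraries, 1 stacked bar per library, over 1408, 1388 and 1571 reads. Nkg7 is the largest band in each bar (46.2%, 39.2% and 49.5%), and the Gzma band at the base is widest with 20(OH)D3 at 9.65%.

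By the distance between the pairs of log2 ratios against vehicle, Prf1 lay nearest to Klrk1 (0.13) and Nkg7 nearest to Eomes (0.12). Gzma and Ncr1 were each other's nearest member but far apart, at 0.74, and the nearest to Gzmb was Klrb1c at 1.21. Among 11451 loci ranked over these 3 libraries, those nearest to Gzma included Scgb2b24 (0.05), a secretoglobin, Mmp28 (0.06), a matrix metalloproteinase, Gsta3 (0.09), a glutathione transferase, and Cd5l (0.11), a protein secreted by macrophages. Cd5l had 169, 391 and 125 normalized counts.

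Most values of the Klr and Ly49 receptor families lay above vehicle with 20(OH)D3, but most of a second receptor list, given below, did not. Of 21 Klr and Ly49 receptor genes, 10 passed the filter, 1 of them through the Klrb1c locus. With 20(OH)D3, 9 of the 10 had a ratio above 1, with a median log2 ratio of 0.43 and a ratio of the sum over the 21 genes of 1.23 (1.12 to 1.35). With 25(OH)D3, 6 lay above 1 and 4 below, with a median of 0.10 and a summed ratio of 1.13 (1.03 to 1.24). Of all 12923 loci past the filter, 6062 lay above vehicle with 20(OH)D3 and 6731 with 25(OH)D3. The count of 6 of 10 with 25(OH)D3 is near that share. At 1.5-fold, 3 were above vehicle with 20(OH)D3 (Klrc1, Klra1 and Klre1, against 11.0% of all loci) and 3 with 25(OH)D3 (Klra1, Klra7 and Klre1, against 4.32%), and 0 were below. The first count was 6 when scaled to T cell genes, but 0 at a 2-fold line. The second was 1 with 10 added to the normalized counts. At a mean of at least 100 normalized counts, both were 0 of 2 loci. With no filter, 5 were higher and 1 lower with 20(OH)D3, and 7 higher and 2 lower with 25(OH)D3. Klra1 and Klra7 are Ly49 receptors, which bind MHC class I, with 16 to 27 and 41 to 63 reads per library. The ratios of Klra1 to vehicle, 1.89 (0.981 to 3.75) and 1.81 (0.941 to 3.60), have intervals that include 1, and Klra1 passed the filter only through the libraries of the compounds. Klre1, which pairs with Klri receptors, had 31, 52 and 47 reads, and its ratio to vehicle was 1.88 (1.18 to 3.03) with 20(OH)D3 and 1.63 (1.01 to 2.65) with 25(OH)D3. Klrc1, the inhibitory NKG2A chain, was 1.67-fold higher with 20(OH)D3 than with 25(OH)D3 (1.07 to 2.62), but 38.6% of its 50-base words occur in other genes. Klrd1 (CD94), the partner of NKG2A, had 335, 341 and 339 reads, and its ratio to vehicle was 1.14 (0.977 to 1.33) and 1.09 (0.931 to 1.27).

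Among 16 other NK receptors and adaptors, 13 passed the filter. With 20(OH)D3, 5 of the 13 lay above vehicle and 8 below, with a median log2 ratio of -0.27. The summed ratio over the 16 was 1.09 (1.04 to 1.14). With 25(OH)D3, 9 lay above and 4 below, with a median of 0.18. Over all 12923 loci past the filter, 6062 lay above vehicle and 6861 below with 20(OH)D3, so 5 of 13 is near that share. With 25(OH)D3, 6731 of all loci lay above and 6192 below. Tyrobp (DAP12), a signalling adaptor that myeloid cells also express, had 598, 1139 and 679 normalized counts and was 1.90-fold higher with 20(OH)D3 than with vehicle (1.73 to 2.10). Cd244 (2B4), a receptor for CD48, went the other way: it had 49.7, 26.2 and 65.4 normalized counts, with a ratio of 0.528 to vehicle (0.314 to 0.864). In normalized counts, Tyrobp and Cd244 were the only ones of the 13 past 1.5-fold with 20(OH)D3 against vehicle, where 11.0% of all loci were higher and 3.51% lower. With 25(OH)D3, 0 of the 13 were past it, where 4.32% of all loci were higher and 2.93% lower. That count was 1 (lower) when reads were scaled to the library total or to T cell genes. Both counts are near the shares over all loci. Itgam (CD11b), an integrin of mature NK cells and of myeloid cells, had 332, 380 and 224 normalized counts and was 1.69-fold higher with 20(OH)D3 than with 25(OH)D3 (1.43 to 2.01). Its ratio to vehicle with 20(OH)D3 was 1.14 (0.985 to 1.33). In FPKM its locus, merged with RP23-144N15.3, stood at 8.55, 15.7 and 7.51, past the 1.5-fold line in that comparison. With 1 or 0.1 added to FPKM, 2 of the 13 were higher and 1 lower there. Hcst (DAP10), the adaptor of NKG2D, had 184, 201 and 189 normalized counts.

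Of 10 ligand genes of NK receptors found, in 8 loci, 6 loci passed the filter. Clec2d, the ligand of Klrb1 family receptors, had 1047, 2825 and 1329 normalized counts and was 2.70-fold higher with 20(OH)D3 than with vehicle (2.51 to 2.89). The merged locus of the NKG2D ligands H60b, Raet1d and Raet1e had 15, 23 and 23 reads, with ratios to vehicle of 1.72 (0.857 to 3.54) and 1.65 (0.822 to 3.39). This locus passed the filter only through the libraries of the compounds, at 14.1, 24.1 and 23.1 normalized counts. Pvr, a ligand of Cd226 and Tigit, had 263, 176 and 280 normalized counts and was 0.630 with 20(OH)D3 relative to 25(OH)D3 (0.517 to 0.766). Nectin2, which binds the same receptors, had 218, 281 and 174 normalized counts and went the other way, at 1.62 (1.33 to 1.97).

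Of the machinery that loads and releases granules, 16 genes were counted. Of these, all past the filter, 3 were at least 1.5-fold above vehicle with 20(OH)D3 (11.0% of all loci) and 0 with 25(OH)D3 (4.32%). The 3 were the lysosomal and vesicle fusion genes Lamp2, Vamp7 and Vamp8, each at a ratio of 1.51 and each expressed well beyond lymphocytes. They sat on the line, and 0 of the 16 were past it when reads were scaled to the library total. Srgn, the proteoglycan that packs granzymes, had 2779, 3299 and 3267 normalized counts, and Ctsc, the protease that activates granzymes, had 2243, 2196 and 2162. The median log2 ratio of the 16 was -0.11 with 20(OH)D3 and -0.04 with 25(OH)D3.

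Of 9 effector ligands and chemokines of cytotoxic cells, 5 passed the filter. With 20(OH)D3, 2 were at least 1.5-fold above vehicle (11.0% of all loci) and with 25(OH)D3, 1 (4.32%); the first count was 1 with 10 added to the normalized counts. The sum over the 9 genes, mostly Ccl5, was 0.932 of vehicle with 20(OH)D3 (0.892 to 0.973), and 1.13 with 25(OH)D3 (1.08 to 1.18). Xcl1, a chemokine of NK and CD8 T cells, had 46, 72 and 51 reads and a ratio of 1.75 (1.19 to 2.59) with 20(OH)D3. Tnf, a cytokine of many immune cells, was above vehicle with both, at 1.54 (1.22 to 1.93) and 1.65 (1.32 to 2.07). Tnfsf10 (TRAIL), a death ligand, had 431, 630 and 307 normalized counts, the order of Gzma, and was 2.05-fold higher with 20(OH)D3 than with 25(OH)D3 (1.79 to 2.37). Ccl5, a granule-stored chemokine, was the most abundant at 3504, 2912 and 4077 normalized counts, the same order of libraries as Nkg7. Ifng, below the filter, had 2, 2 and 12 reads.

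Cytokines that act on NK cells and their receptors gave 12 of 14 genes past the filter. With 20(OH)D3 against vehicle 1 was past 1.5-fold, where 11.0% of all loci were higher and 3.51% lower. This was Il12rb2, an interleukin 12 receptor chain, at 1.53 with an interval of 1.02 to 2.31. With 25(OH)D3 0 were past it, where 4.32% were higher and 2.93% lower. The count with 20(OH)D3 was 0 on FPKM + 1, with 10 added to the normalized counts and when scaled to the library total. Il15, the survival cytokine of NK cells, had 85.3, 73.4 and 115 normalized counts. Of 15 transcription factors, 14 passed. Tbx21 (T-bet), which drives effector genes of NK and T cells, was the 1 at least 1.5-fold above vehicle with either compound. Its ratios were 1.57 (1.14 to 2.16) and 1.55 (1.13 to 2.13), where 11.0% and 4.32% of all loci were higher. The count was 0 in both comparisons on FPKM + 1 and with 10 added to the normalized counts, and also 0 with 25(OH)D3 when scaled to the library total or to T cell genes. Runx3, needed for CD8 T cell and NK cell programmes, was 0.765 with 20(OH)D3 (0.687 to 0.852). None of 8 homing receptors past the filter, of 9, was past 1.5-fold in any comparison. In the 3 comparisons, 11.0%, 4.32% and 9.41% of all loci were higher, and 3.51%, 2.93% and 4.12% were lower. A count of 0 of 8 is near those shares. The lowest homing receptor with 20(OH)D3 against vehicle was Cx3cr1 at 0.743 (0.604 to 0.911).

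**Figure D4:**
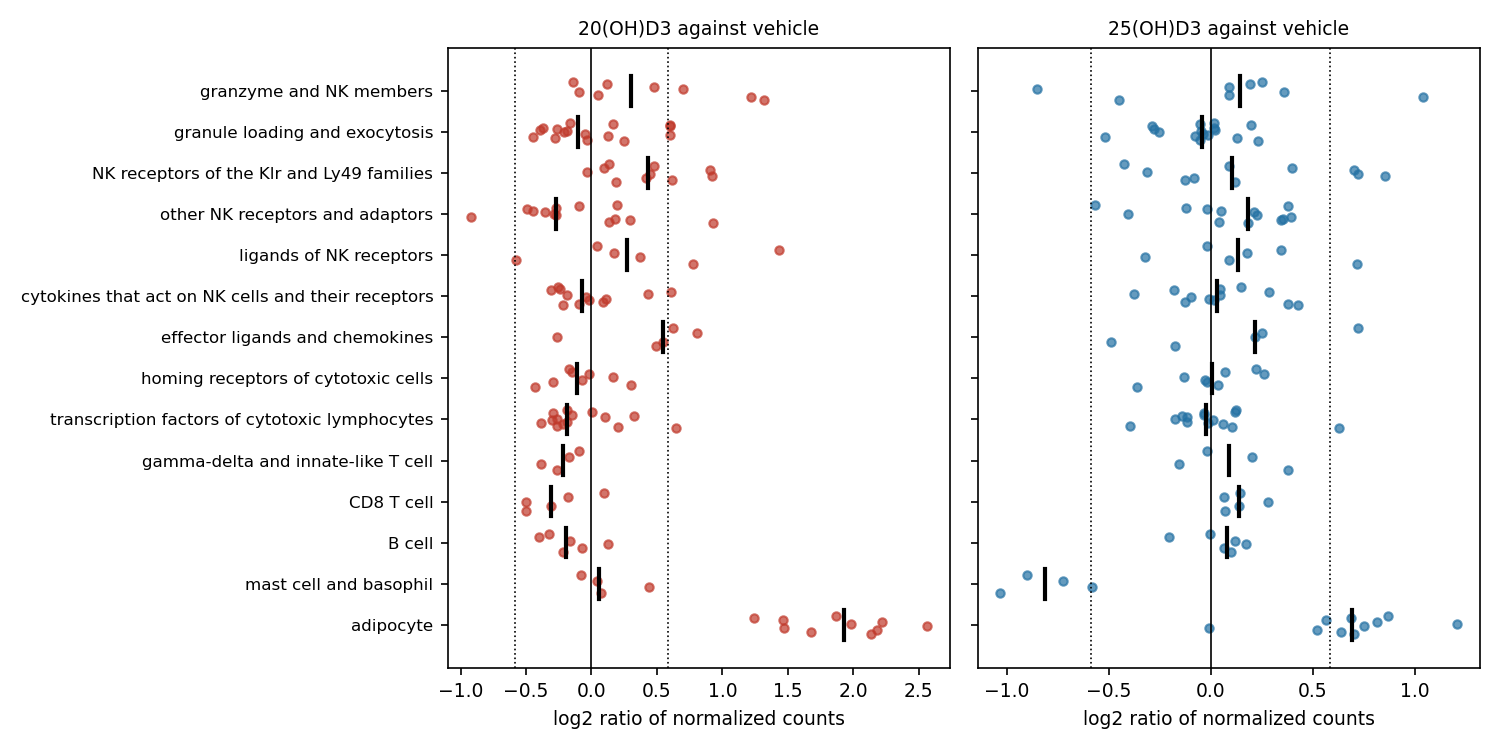
Log2 ratios of normalized counts against vehicle for the members and 13 further gene lists, 1 point per locus past the filter, with a black bar at each list's median and dotted lines at 1.5-fold. The members span -0.14 to 1.32 with 20(OH)D3 (left) and -0.85 to 1.04 with 25(OH)D3 (right), while the adipocyte list lies apart with medians of 1.93 and 0.69.

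Markers of cells that carry or lack the cytotoxic genes gave the following values. The CD8 chains Cd8a and Cd8b1 had 2553, 1807 and 2684 and 1600, 1292 and 1761 normalized counts. That order of libraries, lowest with 20(OH)D3, is the order of Nkg7, Eomes and Ccl5 and the reverse of Gzma. With Cd3e, Cd3d and Cd3g, which all T cells carry, the 5 genes summed to 7567, 6143 and 8296. Of the 5, 0 were past 1.5-fold against vehicle in either comparison. Cd3g, lowest with vehicle, departed from that order. These are orders of point values, and not every step is resolved. Against vehicle, Nkg7 and Eomes with 20(OH)D3 and Cd8a and Gzma with 25(OH)D3 have intervals that include 1. The 4 genes of gamma-delta and innate-like T cells summed to 340.3, 289.5 and 385.3. The 6 B cell genes summed to 27218, 24992 and 28387, with 0 past 1.5-fold. Of 6 mast cell and basophil genes, 4 passed the filter. Of these, 0 were apart with 20(OH)D3 against vehicle, and 3 were lower with 25(OH)D3, such as Mcpt4 at 171, 179 and 83.5 normalized counts. Mcpt8, the basophil protease, was at 0 in every library. Over all loci past the filter, 11.0% were higher and 3.51% lower with 20(OH)D3 than with vehicle. With 25(OH)D3 these shares were 4.32% and 2.93%, so the counts of 0 in these short lists lie near them. The part of these cell types in the values of the members was not tested.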

How the data were processed

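RNA was measured in 3 lymph node libraries, 1 per group, grouped by the agent in the labels. The submitters' processing notes name STAR 2.7.0c, Cufflinks 2.2.1, Cuffdiff and Cuffnorm with GRCm38; no source used here gives their roles, the strand setting or the annotation. The authors deposited 1 FPKM value and 1 normalized count signal per locus and library. The deposited normalized counts were whole reads times 1 factor per library (0.938, 1.05 and 1.01), and 99.9% of values came out within 0.02 of a whole number; for 25(OH)D3, whose factor is near 1, the recovery is less certain. No count test was run, since spread cannot be estimated from 1 library per group. Overlapping genes share a locus, and 1064 loci carry more than 1 symbol. Ratios, medians and counts at 1.5-fold were computed with Python 3.11.15 and scipy 1.17.1 for loci averaging at least 20 normalized counts. In the counts over all loci, a library at 0 was set to a floor of 3 reads; no ratio printed here needed it. Without molecular identifiers a read is not an independent molecule, so intervals cover counting error only. The interval was tested on simulated counts that held only the counting error it assumes. That test cannot show spread between animals or libraries. Of 169 list symbols, 5 were not found.

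The members and gene lists were chosen with earlier results of these data known. Named genes were drawn from all 10 members, of each list the highest and lowest ratio and those at least 1.5-fold apart, and the 5 loci nearest to Gzma in log2 ratios, of which 1 is not reported here. Cd8a, Cd8b1, Klrd1, Hcst, Srgn, Ctsc, Ifng, Mcpt8 and the granzymes other than Gzmc were named as well, some after their values were seen. Alternatives were FPKM with 1 or 0.1 added, normalized counts with 10 added, no filter or a mean of 100, recovered reads over the library total, scaling to 9 T cell genes, scaling without mitochondrial, immunoglobulin and adipocyte loci, and a 2-fold line. The labels give 4 daily injections, whereas the series description gives a longer course.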

Additional observations from a re-analysis of the deposited data

How the results depend on the processing

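Gzma and Gzmb stayed at least 1.5-fold above vehicle with 20(OH)D3 on every scale tried, with log2 ratios of 1.18 to 1.49 and 0.93 to 1.39. Gzmb with 25(OH)D3 ranged from 0.79 to 1.04, and Gzma between the compounds from 1.55 to 2.04. Ncr1 between the compounds ranged from 1.04 to 1.82. The number of members past 1.5-fold with 20(OH)D3 against vehicle was 5 on FPKM + 0.1, where Klrb1c and Gzmm joined. Klrb1c also passed on FPKM + 1 and when scaled to T cell genes. Ncr1 left the count on FPKM + 1 (log2 ratio 0.50), with 10 added to the normalized counts and at a 2-fold line. With 25(OH)D3 against vehicle the number of members was 1 with 10 added to the normalized counts and 1 at a 2-fold line. It was 4 with no expression filter, where Gzmk and Gzmm entered. With a mean of at least 100 normalized counts it was 0 in all 3 comparisons, since Gzma, Gzmb and Ncr1 average less than that. The shares over all loci given above hold for the main setting only, so these counts have no background beside them. Scaling to T cell genes moved the median log2 ratio over all loci to 0.15 with 20(OH)D3 and -0.09 with 25(OH)D3 against vehicle and to 0.25 between the compounds. Of all loci past 1.5-fold, it moved the share that was higher from 75.9% to 90.7%, from 59.6% to 37.5% and from 69.6% to 93.6%; on reads over the library total the second was 47.1%. Under T cell scaling Nkg7 went to a log2 ratio of 0.07 with 20(OH)D3 against vehicle and -0.18 between the compounds. Prf1 between the compounds also changed sign there, at 0.24, and so did Prf1 and Klrb1c with 25(OH)D3 against vehicle, at -0.01 and -0.02. The lowest members, with 2 to 20 reads, limit what depth can show. No paired analysis was possible because each group has 1 library.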
